A study of Mus musculus with 6 samples.

Results

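The transcription factors followed here, 10 in all, steer CD8 T cells between memory and effector fates, and were measured in sorted mouse spleen CD8 T cells: Tcf7, Lef1, Bach2, Foxo1, Id2, Id3, Tbx21, Eomes, Zeb2 and Tox. They were taken by symbol from the 17744 genes of the authors' table. All 10 are listed there, and all 10 passed the filter on low values (FPKM of at least 1 in at least 3 libraries), which left 10655 genes for testing. FPKM is a fragment count scaled to gene length and library size. The study compared 3 control libraries, whose genotype label is wt and treatment label is control, with 3 libraries labelled fus irradiation in both fields. These are called ultrasound libraries here, since the series title speaks of focused ultrasound (sound waves concentrated on a tissue) and spleen function. The cells were sorted from spleen for CD45, CD3 and CD8a, and the share of positive cells was checked by flow cytometry before sequencing. Strain, age, sex, dose, interval after treatment and tumour status are not given in the sources used here. The labels do not say whether the libraries of a group came from separate animals, so p-values measure the spread between these libraries only.

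In CD8 T cells these factors form opposed circuits. Tcf7 (encoding TCF-1), Lef1, Foxo1, Bach2 and Id3 are known for keeping naive and memory cells and their long-lived precursors, while Tbx21 (encoding T-bet), Zeb2 and Id2 are known for driving terminal effector cells. Eomes shares targets with T-bet and is linked to memory, and Tox is known from chronically stimulated T cells. Several of them are not confined to T cells: NK cells use Tbx21, Eomes, Zeb2 and Id2, myeloid cells express Zeb2 and Id2, and B cells express Bach2 and Foxo1.

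The libraries hold 35024080 to 38113103 reads, recovered as whole numbers from the deposited values. The T cell markers were abundant, with Cd8b1 at 504 to 562 FPKM in controls and 438 to 546 in ultrasound libraries. Of 11 T cell markers in the table, 0 passed limma's adjusted p of 0.05. Markers of other cells were present as well, and some were higher in ultrasound libraries. The 14 monocyte and macrophage markers summed to 437 to 950 FPKM in controls and 2135 to 3611 in ultrasound libraries. The 11 neutrophil markers summed to 199 to 600 FPKM in controls (600 in control 1), 2473 in ultrasound 1, and 696 and 731 in ultrasound 2 and 3. The 10 B cell markers summed to 243 to 374 FPKM in controls, 179 in ultrasound 1, and 945 and 820 in ultrasound 2 and 3. The 9 NK cell markers summed to 5.54 to 8.78 FPKM in controls, 10.6 in ultrasound 1, and 35.7 and 29.7 in ultrasound 2 and 3. The share of reads from mitochondrial genes was 2.05% to 2.70% in controls, 2.19% in ultrasound 1, and 0.954% and 0.937% in ultrasound 2 and 3. Ultrasound 1 therefore stood apart from the other ultrasound libraries, and the factors' changes are given without it where it moves them. In bulk RNA, fewer cells of a type and less RNA per cell cannot be told apart.

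In the deposited FPKM, all ultrasound libraries lay below all controls for 6 factors, for 1 all lay above them, and for 3 the groups overlapped. The 6 lower factors were Tcf7, Foxo1, Bach2, Id3, Eomes and Tox, the higher factor was Zeb2, and Lef1, Id2 and Tbx21 overlapped. Over all tested genes, the ultrasound libraries lay below the controls without overlap for 8.96% and above them for 25.9%, or 34.8% in both directions. Tested with limma on log2(FPKM + 1), 0 of the 10 factors passed an adjusted p of 0.05, against a background of 8.11% of tested genes (6.55% higher and 1.56% lower), and 7 had an unadjusted p under 0.05, against 31.2%. The 864 genes that passed were 698 higher and 166 lower. That split was 293 and 144 with median-of-ratios size factors, 431 and 192 with upper-quartile factors, and 911 and 50 when libraries were scaled to the T cell list. In the authors' deposited table, 7 of the 10 factors have q under 0.05, 6 lower and 1 higher. Over the tested genes that table has 7.73% lower and 8.64% higher at this q, 16.4% in all, and 12.3% of its 17744 genes. The members were picked with earlier results of these data known, so these counts describe them and are no test. Their median log2 change was -0.28, against 0.09 over all tested genes, where log2 changes are on the log2(FPKM + 1) scale and understate the change of low genes.

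**Figure D1:**
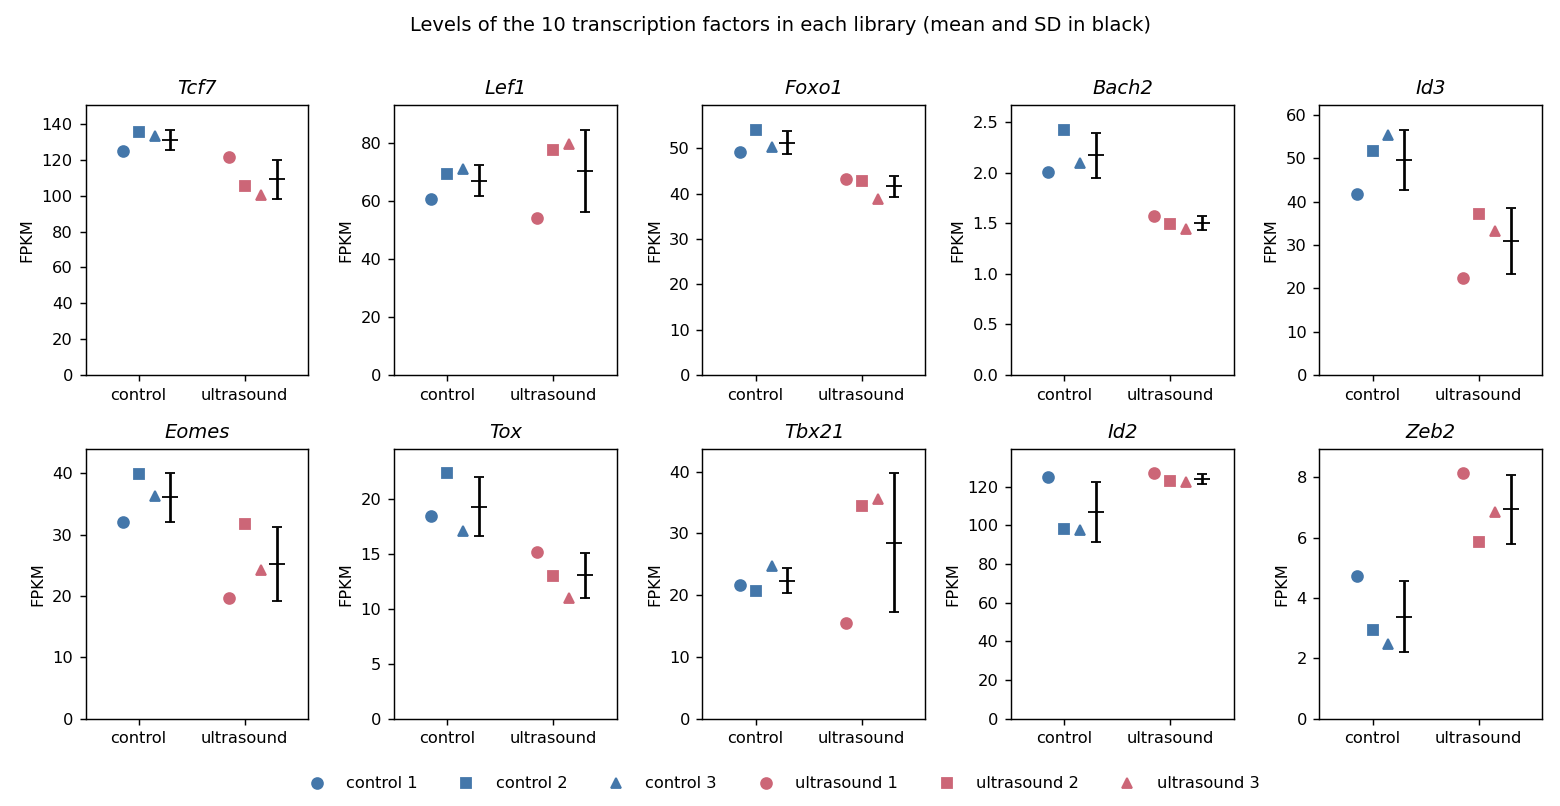
FPKM (vertical axes, each starting at 0) of the 10 factors in 3 control libraries (blue) and 3 ultrasound libraries (red); marker shapes give the library number and black bars the mean and SD. For Tcf7, Foxo1, Bach2, Id3, Eomes and Tox all red points lie under all blue ones, for Zeb2 all lie above, and ultrasound 1 sits opposite to ultrasound 2 and 3 for Lef1 and Tbx21.

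Leaving out ultrasound 1 changed the calls. The remaining 2 ultrasound libraries against 3 controls gave 7 of 10 factors with limma adjusted p under 0.05, against a background of 53.6%. These were Tcf7, Bach2, Foxo1, Id3 and Tox lower, and Tbx21 and Zeb2 higher. Ultrasound 1 was left out with its difference known. The adjusted p-values without it, here and for each factor below, are therefore descriptive and stand against that 53.6%. Without control 1, Zeb2 alone passed, against a background of 5.40%. Without control 2, control 3, ultrasound 2 or ultrasound 3, 0 factors and 0 genes passed with limma, with 1913 to 2137 genes at an unadjusted p under 0.05.

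Among the factors that keep naive and memory cells, Tcf7 had the highest FPKM. TCF-1 is a DNA-binding HMG-box protein that maintains stem-like and memory CD8 T cells. Tcf7 (NCBI Gene 21414; chr11:52246527-52283383 in GRCm38) had 125, 135 and 133 FPKM in controls 1 to 3 and 122, 105 and 100.5 in ultrasound 1 to 3. The groups did not overlap, but ultrasound 1 lay 3.25 FPKM below the lowest control. The log2 change was -0.27 with a standard error of 0.10 (limma adjusted p 0.134), and -0.35 without ultrasound 1 (limma adjusted p 0.00582). Without ultrasound 2 it was -0.24 and without ultrasound 3 it was -0.21 (limma adjusted p 0.350 and 0.371). In the authors' deposited table the log2 fold change of Tcf7 is -0.39 with q 0.0177.

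Lef1 encodes the close relative of TCF-1 and acts beside it. Lef1 (NCBI Gene 16842; chr3:131110297-131224357) had 60.8, 69.1 and 71.1 FPKM in controls and 54.2, 77.6 and 79.4 in ultrasound 1 to 3. Ultrasound 1 lay below every control, and ultrasound 2 and 3 lay above every control. Its log2 change of 0.05 with a standard error of 0.16 (limma adjusted p 0.834) became -0.05 with median-of-ratios size factors, -0.04 with upper-quartile factors and 0.23 without ultrasound 1 (limma adjusted p 0.0518). Tcf7 and Lef1 therefore moved to different sides of the controls in ultrasound 2 and 3, while both lay below them in ultrasound 1.

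Foxo1 is a forkhead factor that supports naive cell homing and survival genes. Foxo1 (NCBI Gene 56458; chr3:52268337-52350109) had 49.2, 54.1 and 50.3 FPKM in controls and 43.2, 42.7 and 38.9 in ultrasound libraries. Its group means were 51.2 ± 2.55 and 41.6 ± 2.36 FPKM (SD, n = 3 each). The 6.02 FPKM between the nearest libraries of each group exceeded the SD of either group, yet the log2 change of -0.29 (standard error 0.09) had a limma adjusted p of 0.0802. Without ultrasound 1 it was -0.32 (limma adjusted p 0.0104). The authors' deposited table gives Foxo1 a q of 0.000288.

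Bach2, a repressor that restrains effector genes at sites shared with AP-1, was listed at low FPKM but with many reads. Bach2 (NCBI Gene 12014; chr4:32238413-32586109) had 2.002, 2.42 and 2.09 FPKM in controls and 1.57, 1.495 and 1.44 in ultrasound libraries. These values rest on 4073, 4889 and 4250 reads in controls and 3192, 3230 and 3162 in ultrasound libraries, without overlap on either scale. The log2 change was -0.34 with a standard error of 0.10 (limma adjusted p 0.0874) on the log2(FPKM + 1) scale. With voom, which weights log-scaled reads by their precision, it was -0.52 on the recovered reads (limma adjusted p 0.0346), against a background of 8.16%. In the authors' deposited table the log2 fold change of Bach2 is -0.66 with q 7.15e-06.

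Reads and FPKM together give the gene length the authors used, and for 2 factors it was far from the annotation. Bach2 has an implied length of 57626 bases, against 9940 exonic bases in GENCODE M21, a ratio of 5.80. Tcf7 has 12698 bases against 2625, a ratio of 4.84. Over 15859 genes the median ratio was 0.92, and these 2 factors stood at the 98.9th and 98.5th percentiles. The other 8 factors had ratios of 0.49 to 1.03. A length common to all libraries leaves the comparison between groups as it is, apart from the weight of the pseudocount, but the FPKM of Bach2 and Tcf7 cannot be set against other genes with confidence.

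With that limit, the order of control levels in FPKM was Tcf7, Id2, Lef1, Foxo1, Id3, Eomes, Tbx21, Tox, Zeb2 and Bach2, from 131 ± 5.60 down to 2.17 ± 0.22 (SD, n = 3 each). Neighbours whose control ranges overlapped were Tcf7 with Id2, Foxo1 with Id3, and Tbx21 with Tox. The ranges of Id2 and Lef1, Lef1 and Foxo1, Id3 and Eomes, Eomes and Tbx21, Tox and Zeb2, and Zeb2 and Bach2 did not overlap in controls. With GENCODE exonic lengths in place of the authors', Bach2 stood at 12.6 and Tox at 11.6, so the last place went to Zeb2 at 1.66, and Eomes at 32.3 stood above Id3 at 26.4.

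Id2 and Id3 are small helix-loop-helix proteins without a DNA-binding region, which hold E proteins away from E-box sites in DNA. Id3 marks memory precursors and Id2 effector cells. The 250 bases before the RefSeq start of each gene (GRCm38.p6) are shown because the ratio of the pair is compared further on and E proteins bind E-boxes. Capitals mark each match to the E-box letters CANNTG, which read the same on both strands. The Id2 window lies at chr12:25096093-25096342 on the minus strand and the Id3 window at chr4:136143572-136143821 on the plus strand.
Id2: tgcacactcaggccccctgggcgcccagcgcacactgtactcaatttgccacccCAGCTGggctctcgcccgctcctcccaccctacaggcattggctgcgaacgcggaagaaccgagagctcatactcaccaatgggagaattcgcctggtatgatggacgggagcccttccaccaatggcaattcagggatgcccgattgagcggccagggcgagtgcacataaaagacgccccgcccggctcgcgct
Id3: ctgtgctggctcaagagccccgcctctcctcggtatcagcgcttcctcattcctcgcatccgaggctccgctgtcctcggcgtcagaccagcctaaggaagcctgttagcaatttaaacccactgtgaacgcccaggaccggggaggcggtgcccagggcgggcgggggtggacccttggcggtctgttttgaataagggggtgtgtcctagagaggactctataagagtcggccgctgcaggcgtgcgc
Both windows have 62.8% G and C. The Id2 window holds 1 match, a CAGCTG, and the Id3 window holds 0. Of all 32851 RefSeq windows of this length, 66.2% hold CANNTG and 13.0% hold CAGCTG, so neither result sets the pair apart from other genes.

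Id3 (NCBI Gene 15903; chr4:136143822-136145392) had 41.8, 51.7 and 55.3 FPKM in controls and 22.4, 37.2 and 33.2 in ultrasound libraries. Ultrasound 1 was the lowest of all 6, and the highest ultrasound library lay 4.54 FPKM below the lowest control. Its log2 change of -0.68 (standard error 0.20) was the most negative of the 10 factors, with a limma adjusted p of 0.0815. Without ultrasound 1 it was -0.47 (limma adjusted p 0.0173). Scaled to the T cell list, Id3 passed as the only factor (limma adjusted p 0.0429), against a background of 9.02%. Under that scaling limma gave the other lower factors adjusted p of 0.368 (Tcf7), 0.225 (Foxo1), 0.207 (Bach2), 0.154 (Tox) and 0.0550 (Eomes). Only 4 of the 10 factors then had an unadjusted p under 0.05, against 29.5% of all tested genes.

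Id2 (NCBI Gene 15902; chr12:25093799-25096092) had 125, 97.9 and 97.7 FPKM in controls and 127, 122.8 and 122 in ultrasound libraries. Control 1 lay among the ultrasound libraries, and the other controls lay below all of them. The log2 change was 0.22 with a standard error of 0.12 (limma adjusted p 0.232). Control 1 also had the highest sums of monocyte and macrophage, neutrophil and B cell markers among the controls, whose part in the Id2 level was not tested.

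Zeb2, a zinc-finger repressor that acts under T-bet in terminal effector cells, had the largest positive log2 change of the 10 factors, from a low level. Zeb2 (NCBI Gene 24136; chr2:44983512-45117442) had 4.71, 2.95 and 2.48 FPKM in controls and 8.13, 5.84 and 6.84 in ultrasound libraries. The means were 3.38 ± 1.18 and 6.94 ± 1.15 FPKM (SD, n = 3 each), a ratio of 2.05. The log2 change was 0.88 with a standard error of 0.21, and the limma adjusted p of 0.0501 lay just above the threshold. Zeb2 passed under 4 of 15 limma alternatives, with adjusted p from 0.0267 to 0.198 over all 15. It passed with voom on the recovered reads (limma adjusted p 0.0444), in a non-robust fit (0.048, against a background of 8.34%), without control 1 (0.0267) and without ultrasound 1 (0.0285). It did not pass with median-of-ratios factors (0.0774), upper-quartile factors (0.0676) or T cell scaling (0.0862), nor without control 2 (0.198) or control 3 (0.179). The authors' deposited table gives Zeb2 a log2 fold change of 0.92 with q 0.0129.

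The order of Zeb2 over the libraries, with ultrasound 1 highest and control 1 highest among controls, was also that of C1qc. The summed monocyte and macrophage markers were highest in ultrasound 3 instead. Of 5513 other tested genes with a mean of at least 10 FPKM, those with the highest Pearson r to Zeb2 over the 6 libraries were C1qc (r = 0.998), Ctsc (0.997) and Sel1l (0.997). C1qc, a complement gene of macrophages, had 60.9, 41.4 and 35.5 FPKM in controls and 89.6, 69.6 and 80.2 in ultrasound 1 to 3. With so few libraries, which share depth and group, these r values describe the pattern only. Of 14 tested monocyte and macrophage markers, 7 rose with limma and 0 fell (50% called, against 8.11% of all tested genes), with a median log2 change of 1.24. The 7 include Ms4a7, named only for this limit: with 0.545 to 0.809 FPKM in controls, it met the filter only through the ultrasound libraries. Lyz2 rose from 305 ± 168 to 1888 ± 723 FPKM and Csf1r from 45.1 ± 18.5 to 146 ± 49.9 (mean ± SD over 3 libraries each, with limma adjusted p 0.0304 and 0.0362). With median-of-ratios factors 4 of the 14 rose, and Csf1r did not pass (limma adjusted p 0.0517). Their part in the Zeb2 result was not tested. Zeb2os, a long noncoding gene that overlaps Zeb2 by 2950 bases, had 71, 29 and 35 reads in controls and 185, 150 and 187 in ultrasound libraries. Whether the authors' counting used strand is not given in the sources used here, so a few Zeb2 reads could belong to Zeb2os or the reverse. That limit also holds for Tcf7, which overlaps the protein-coding gene Skp1 by 332 bases. Skp1 had 4208, 4311 and 4365 reads in controls and 3915, 3398 and 3104 in ultrasound libraries. Long noncoding genes overlap Bach2 (Bach2os, 11983 bases), Eomes (Gm33408, 547 bases) and Tox (Gm11802, 21335 bases).

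Tbx21 and Eomes encode the T-box factors of cytotoxic cells. The 250 bases before each RefSeq start are shown because the ratio of this pair, like that of Id2 and Id3, is compared further on. Capitals again mark CANNTG. The Tbx21 window lies at chr11:97115332-97115581 on the minus strand and the Eomes window at chr9:118477939-118478188 on the plus strand.
Tbx21: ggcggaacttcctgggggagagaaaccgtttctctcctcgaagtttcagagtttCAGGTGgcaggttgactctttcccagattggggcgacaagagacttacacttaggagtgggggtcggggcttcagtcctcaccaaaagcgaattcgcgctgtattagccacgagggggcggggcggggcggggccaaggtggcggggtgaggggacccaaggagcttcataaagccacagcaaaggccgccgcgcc
Eomes: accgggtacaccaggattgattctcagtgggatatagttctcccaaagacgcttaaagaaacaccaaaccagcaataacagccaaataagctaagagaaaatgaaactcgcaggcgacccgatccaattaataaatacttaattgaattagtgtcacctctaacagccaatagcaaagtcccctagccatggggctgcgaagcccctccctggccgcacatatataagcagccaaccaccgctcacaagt
The Tbx21 window has 60.8% G and C and 1 match, a CAGGTG, a form of the E-box that ZEB proteins bind. CAGGTG, or CACCTG on the other strand, is in 17.2% of all windows. The Eomes window has 46.4% G and C and 0 matches. Windows were listed for 9 of the 10 factors, all but Tox. The Tcf7 and Bach2 windows lie inside the RefSeq spans of their genes. Searched on both strands in these 9, TGANTCA (AP-1), CTTTGAA (TCF and LEF), GTAAACA (FOXO) and TCACACC (T-box) were found in 0, against 6.75%, 4.46%, 3.17% and 3.33% of all windows. CCGGAAG (ETS) was found in 1, that of Bach2, against 6.91%.

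Tbx21 (NCBI Gene 57765; chr11:97098007-97115331) had 21.7, 20.7 and 24.7 FPKM in controls and 15.5, 34.4 and 35.5 in ultrasound libraries. Ultrasound 1 was the lowest of all 6 libraries, while ultrasound 2 and 3 lay above every control. The log2 change of 0.25 had a standard error of 0.30 (limma adjusted p 0.577). It was 0.63 without ultrasound 1 (limma adjusted p 0.00141) while ultrasound 1 by itself lay at -0.50 relative to the control mean, a single library with no test. The summed levels of NK cell, B cell and dendritic cell markers were also higher in ultrasound 2 and 3 than in ultrasound 1 and all controls. Relative to the control mean, the NK cell list lay at -0.11 in ultrasound 1 and at 1.58 and 1.22 in ultrasound 2 and 3. Their part in the Tbx21 level was not tested.

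Eomes (NCBI Gene 13813; chr9:118478186-118486132) had 32.0, 39.9 and 36.4 FPKM in controls and 19.6, 31.7 and 24.3 in ultrasound libraries. The groups were separated by 0.331 FPKM, the distance from control 1 to ultrasound 2, which is less than either group's SD of 3.94 and 6.08. The log2 change was -0.52 with a standard error of 0.18 (limma adjusted p 0.110), and -0.36 without ultrasound 1 (limma adjusted p 0.0606). In ultrasound 2 and 3 Eomes thus lay below the controls where Tbx21 lay above them. The summed NK cell markers were at their highest in the same 2 libraries, and NK cells also express Eomes. The part of NK cells in the Eomes level was not tested.

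Tox, an HMG-box factor induced by persistent antigen signals, had 18.4, 22.3 and 17.1 FPKM in controls and 15.1, 13.0 and 10.99 in ultrasound libraries. Tox (NCBI Gene 252838; chr4:6686353-6991557) had no ultrasound library above 15.1 and no control under 17.1. The log2 change was -0.53 with a standard error of 0.15 (limma adjusted p 0.0694), and -0.64 without ultrasound 1 (limma adjusted p 0.00524). The authors' deposited table gives Tox a q of 0.00257.

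**Figure D2:**
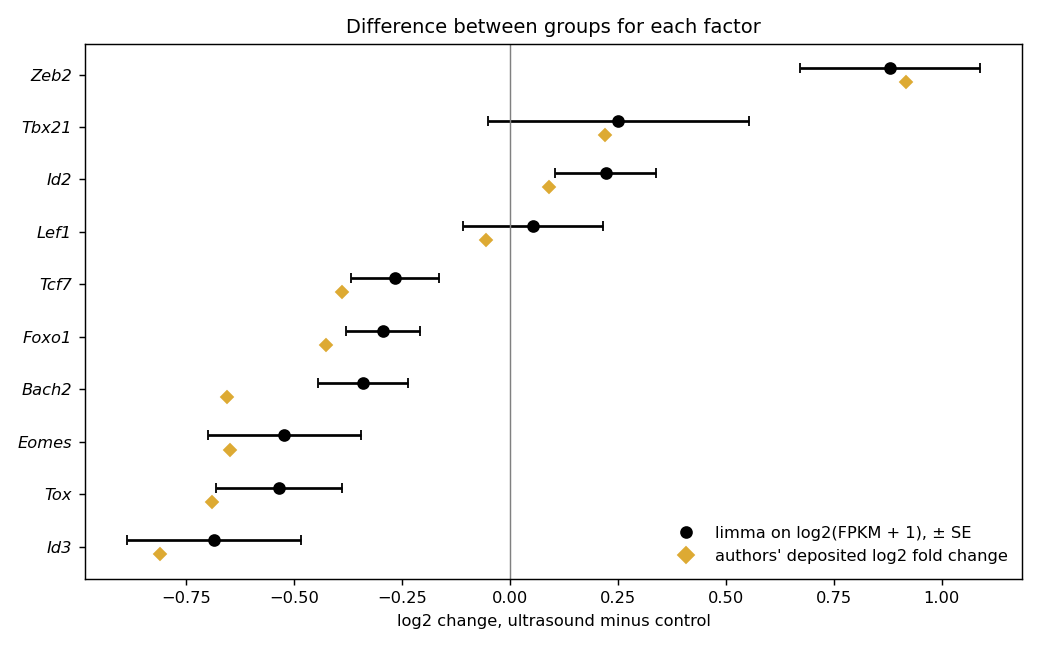
Log2 change, ultrasound minus control, of the 10 factors: black points are limma estimates on log2(FPKM + 1) with their standard errors, yellow diamonds the authors' deposited log2 fold changes. Id3 has the most negative change (-0.68 and -0.81) and Zeb2 the most positive (0.88 and 0.92); the 2 estimates of Lef1 differ in sign.

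The lower factors differed in which ultrasound library lay farthest from the controls. For Id3 and Eomes it was ultrasound 1, at -1.10 and -0.84 on the log2 scale relative to the control mean. For Tcf7, Foxo1, Bach2 and Tox ultrasound 1 was the nearest, at -0.11, -0.24, -0.30 and -0.32, and ultrasound 3 the farthest, at -0.38, -0.39, -0.38 and -0.75. Over the 6 libraries Id3 and Eomes had a Pearson r of 0.961, and Bach2 and Foxo1 of 0.979, values that share libraries and group and serve as description. The genes most like Tcf7 over the 6 libraries were Supt20 (r = 0.997), Rsrc2 (0.992) and Zcchc7 (0.992), out of 5512.

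**Figure D3:**
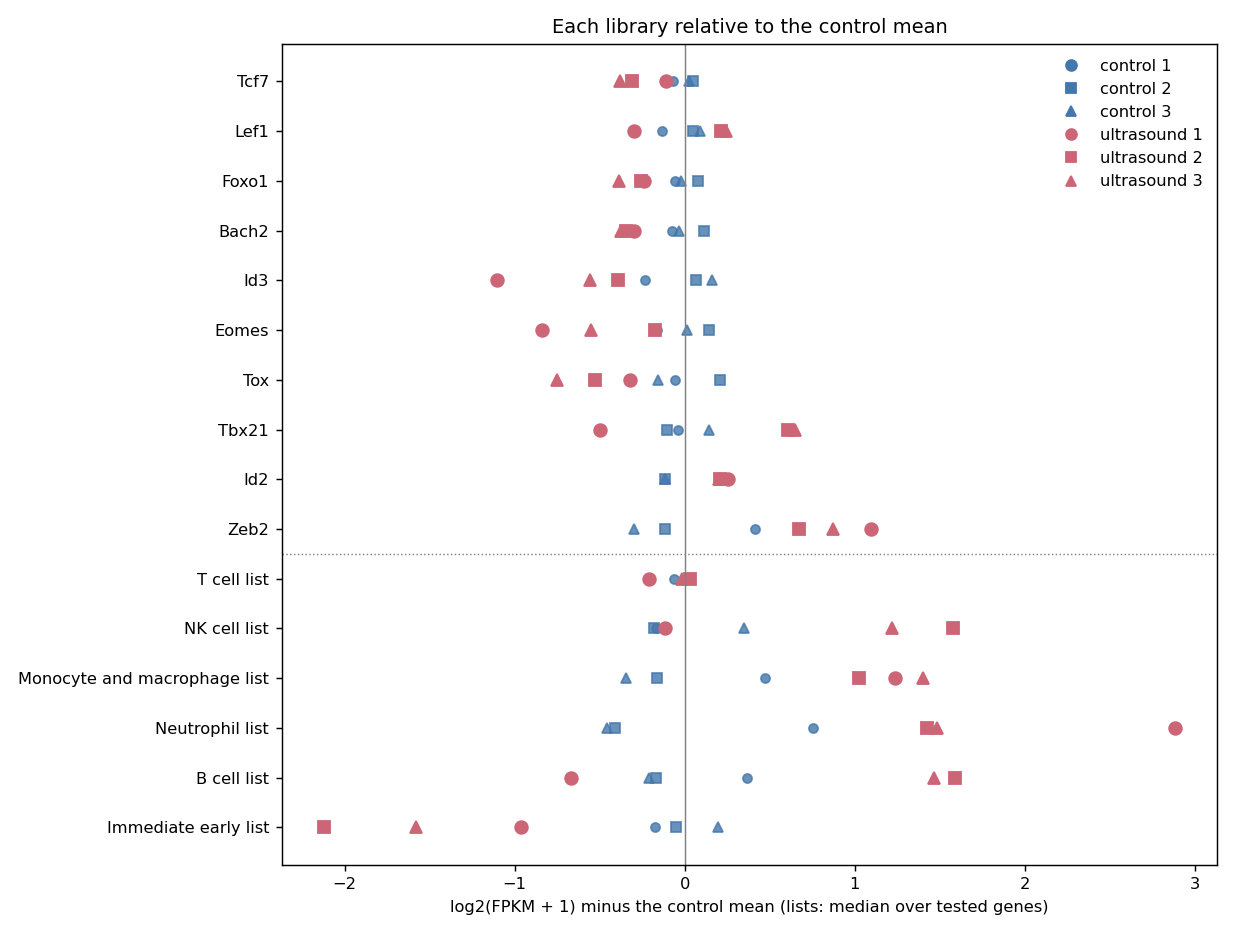
Each library's log2(FPKM + 1) minus the control mean (horizontal axis) for the 10 factors and, under the dotted line, the median over tested genes of 6 marker lists; blue points are controls and red points ultrasound libraries. Ultrasound 1 is the ultrasound library farthest from the control mean for Lef1, Id2, Id3, Eomes, Zeb2 and the T cell and neutrophil lists. It lies on the other side of the controls from ultrasound 2 and 3 for Lef1, Tbx21 and the B cell list.

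A ratio of 2 factors within 1 library depends little on how the library was scaled. Each ratio here is of FPKM + 1. For 4 ratios the groups were compared with an exact two-sided permutation test, which with 3 libraries a group cannot give a p below 0.10. The log2 ratio of Id3 to Id2 was -1.09 ± 0.41 in controls and -2.00 ± 0.40 in ultrasound libraries (SD, n = 3 each), without overlap, with an exact p of 0.10. That of Eomes to Tbx21 was 0.66 ± 0.22 and -0.11 ± 0.43 (SD, n = 3 each), also without overlap and with an exact p of 0.10. That of Bach2 to Zeb2 was -0.44 ± 0.43 and -1.66 ± 0.19 (SD, n = 3 each), again without overlap and with an exact p of 0.10. Its level, like that of the ratio with Tcf7, depends on the authors' gene length. With GENCODE exonic lengths Bach2 stood at 12.6 FPKM and Zeb2 at 1.66 in controls. The added 1 also weighs on this ratio, since both genes have low FPKM. The groups overlapped for Tcf7 to Tbx21, at 2.502 ± 0.14 and 1.98 ± 0.79 (SD, n = 3 each; exact p 0.40), with ultrasound 1 above every control at 2.89 and ultrasound 2 and 3 below at 1.59 and 1.47. Without ultrasound 1 the differences were -0.97 for Tcf7 to Tbx21, in place of -0.52, and -0.68, -0.99 and -1.13 for the other ratios in the order given above, with an exact p of 0.20 each, the smallest that 2 against 3 libraries can give. Adjusted over the 4 ratios, the exact p was 0.133 for the first 3 and 0.40 for the last.

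**Figure D4:**
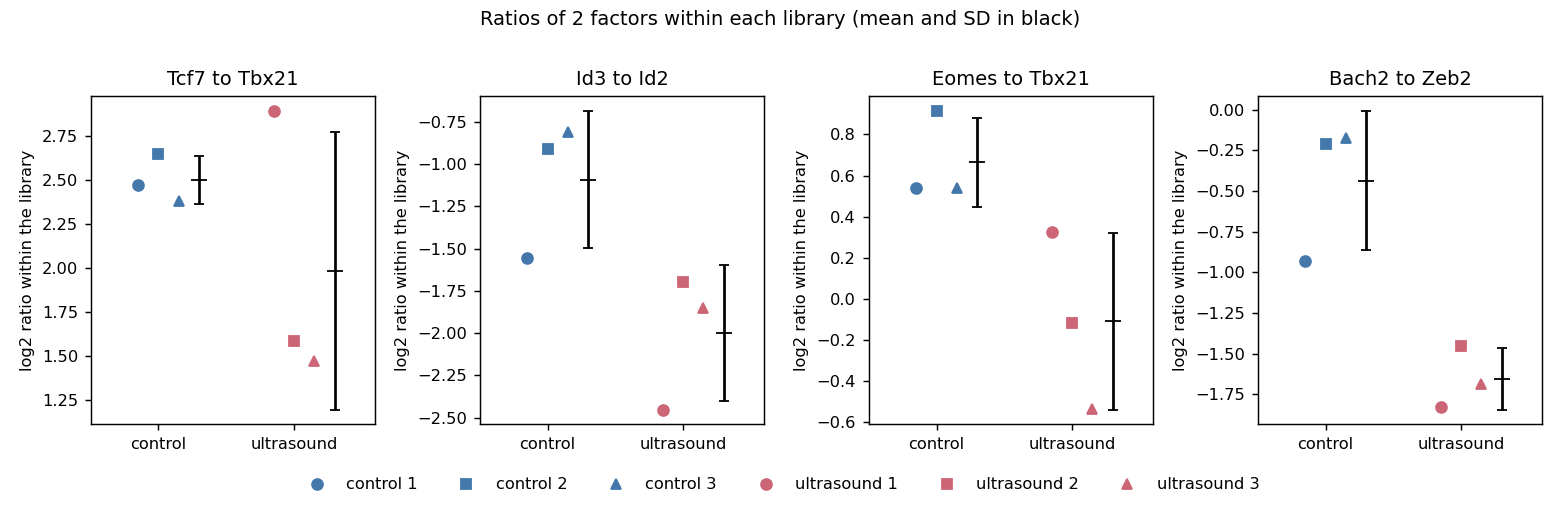
Log2 ratio of 2 factors' FPKM + 1 within each library (vertical axes do not start at 0), for 3 controls (blue) and 3 ultrasound libraries (red), with the mean and SD in black. The ratios of Id3 to Id2, Eomes to Tbx21 and Bach2 to Zeb2 have all red points under all blue ones, while Tcf7 to Tbx21 overlaps.

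Partners and relatives of the factors were tested as a list of 16. The calls in this and the following gene lists need all of control 2, control 3, ultrasound 2 and ultrasound 3, since 0 genes passed by limma without any one of them. Of the 16 partners and relatives, 2 rose and 1 fell (18.8% called, against 8.11% of all tested genes), with a median log2 change of -0.04. Ctnnb1, whose product beta-catenin binds TCF-1 and LEF-1, rose from 41.5 ± 2.67 to 61.3 ± 7.60 FPKM (mean ± SD over 3 libraries each, with limma adjusted p 0.0407). Tcf7l2, a TCF family member, rose from 0.52 ± 0.20 to 1.48 ± 0.36 FPKM (mean ± SD over 3 libraries each, with limma adjusted p 0.0430). With 0.380 to 0.746 FPKM in controls, Tcf7l2 met the filter on low values only through the ultrasound libraries. Its entry into the test, and so its part in the 18.8%, depended on the group where it was higher. Both calls were lost with median-of-ratios factors (limma adjusted p 0.0646 for Ctnnb1 and 0.0598 for Tcf7l2) and upper-quartile factors (0.0584 and 0.0515). Mafk, a small Maf protein that pairs with BACH factors, fell from 21.6 ± 1.96 to 8.08 ± 4.37 FPKM (mean ± SD over 3 libraries each, with limma adjusted p 0.0414), with 13.1 in ultrasound 1 and 5.25 and 5.87 in ultrasound 2 and 3. Scaled to the T cell list, Mafk did not pass (limma adjusted p 0.0695). The E protein genes Tcf3 and Tcf12, which Id2 and Id3 restrain, had log2 changes of 0.14 and -0.20 and did not pass. These 2 genes were chosen after their values were seen.

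Among 23 other tested fate factors, 0 rose and 2 fell (8.70% called, near the 8.11% of all tested genes), with a median of -0.12. Irf4, a factor induced by T cell receptor signals, fell from 25.3 ± 2.26 to 15.2 ± 1.15 FPKM (mean ± SD over 3 libraries each, with limma adjusted p 0.0304). Myb, known for sustaining stem-like CD8 T cells, fell from 19.6 ± 1.08 to 14.0 ± 1.03 FPKM (mean ± SD over 3 libraries each, with limma adjusted p 0.0385). For both, all ultrasound libraries lay below all controls. Scaled to the T cell list, neither passed (limma adjusted p 0.0553 for Irf4 and 0.0906 for Myb).

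Of 16 tested targets linked to the memory factors, 0 rose and 1 fell (6.25% called, near the 8.11% of all tested genes), with a median of -0.11. S1pr1, the receptor for exit from lymphoid organs, fell from 156 ± 2.25 to 110 ± 9.003 FPKM (mean ± SD over 3 libraries each, with limma adjusted p 0.0320), a call lost when scaled to the T cell list (limma adjusted p 0.0906). Targets linked to T-bet and Zeb2 had a median of 0.32 over 20 genes, of which 1 rose and 1 fell (10% called, also near 8.11%). Gzmb, a granzyme, rose and Ifng, the cytokine interferon gamma, fell, with log2 changes of 0.98 and -1.58 (limma adjusted p 0.0311 and 0.0304). The list median lay at -0.24 in ultrasound 1 and at 0.67 and 0.54 in ultrasound 2 and 3, the same division as for Tbx21. Cx3cr1 and S1pr5, effector genes chosen after their values were seen, had 5.18 and 2.86 FPKM in ultrasound 1, 30.8 and 14.4 in ultrasound 2, and 40.1 and 17.8 in ultrasound 3. Their controls lay between 3.80 and 4.26 FPKM for Cx3cr1 and between 2.17 and 2.64 for S1pr5. NK cells and monocytes express these genes too, and the part of such cells was not tested.

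Of 8 inhibitory receptor genes associated with Tox, 3 rose and 0 fell (37.5% called, against 8.11% of all tested genes), with a median of 0.11. The 3 were Cd244a, Havcr2 and Entpd1, with log2 changes of 1.33, 1.18 and 0.98 (limma adjusted p 0.0335, 0.0380 and 0.0433), while Tox itself had a change of -0.53. None of the 3 passed with median-of-ratios factors (limma adjusted p 0.0512, 0.0544 and 0.0622), and Entpd1 did not with upper-quartile factors (0.0544). Ctla4 had a larger change in the other direction, at -1.67 (limma adjusted p 0.116), with 81.5 to 88.8 FPKM in controls, 76.8 in ultrasound 1, and 14.4 and 15.8 in ultrasound 2 and 3. Lag3 and Tigit had changes of -0.38 and -0.24 with overlapping groups. These last 3 genes were chosen after their values were seen. Myeloid cells also express Havcr2 and Entpd1. The part of cells other than T cells in the rises of Cd244a, Havcr2 and Entpd1 was not tested. Immediate early genes, which T cell receptor signals and tissue handling induce, were lower. Of 14 tested, 11 fell and 0 rose (78.6% called, against 8.11% of all tested genes, 1.56% lower), with a median of -1.49. Scaled to the T cell list, 3 of the 14 fell, where 0.469% of all tested genes passed as lower. Nr4a2 fell from 25.5 ± 3.54 to 3.61 ± 3.65 FPKM and Fosb from 282 ± 4.08 to 61.8 ± 44.4 (mean ± SD over 3 libraries each, with limma adjusted p 0.0311 and 0.0385), and Fosb did not pass when scaled to the T cell list (limma adjusted p 0.0519). Their list median was -0.96 in ultrasound 1 and -2.12 and -1.58 in ultrasound 2 and 3. The part of this difference in the levels of Id3, Tox, Irf4 and the other factors was not tested.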

How the data were processed

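Bulk RNA-seq of 6 libraries was analysed, 3 control and 3 ultrasound, grouped and numbered by the sample titles. RNA was extracted with TRIzol, and the VAHTS library kit is named in 2 versions, per the labels' protocols. HISAT2, HTSeq, DESeq2 and R 3.2.0 and the build mm10 are listed in the submitters' processing notes, with no role or order. The deposited table holds FPKM per library, per the file headers. It also holds a signal column set, the authors' means of DESeq2 normalized counts, per the file headers. The deposited fold ratio and its log2 come from these means, and the p-value and q-value columns are the authors', per the file headers. The table of all genes was used, and the deposited filtered table was not.

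Since the table has no counts for the planned count test, log2(FPKM + 1) was tested with limma 3.58.1 under R 4.3.3, with a mean-variance trend and robust variances. Genes with FPKM of at least 1 in at least 3 libraries entered, and two-sided p-values were adjusted over all 10655 by Benjamini-Hochberg. Whole reads were recovered from the linear relation between FPKM and group means: the 42758 low values checked were 100% whole to a tolerance of 0.05. The fits and the recovery were tested on simulated data first. Of 200 simulated 2-fold changes, limma recovered 100% at a dispersion of 0.01 and 62.5% at 0.05, with 13 and 3 false calls. Smaller changes were not simulated. Python 3.11.15, pandas 2.3.3, numpy 2.4.6, scipy 1.17.1 and matplotlib 3.10.9 were used.

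The members, lists and alternatives were chosen with earlier results of these data known. Beside the members, genes are named from each list: those with adjusted p under 0.05, at most the 4 with the largest change, or, where none passed, at most the 2 with the highest mean. The 3 genes most like Tcf7 and Zeb2 are named too. Genes outside this rule are marked. Promoter windows and coordinates are from RefSeq (GRCm38.p6, the assembly behind mm10), and exonic lengths from GENCODE M21. Lists not described in the text had these results. Of CD4 T cell, erythroid, B cell and dendritic cell markers, 0 of 5, 7, 9 and 4 tested passed, with medians of 0.29, -0.43, 0.79 and 0.76. Of 4 tested NK cell markers 1 rose (Klrb1c, limma adjusted p 0.0297), or 25%. Of 11 tested neutrophil markers 4 rose and 0 fell, or 36.4% called, against 8.11% of all tested genes. Mmp8 and Cxcr2 among these met the filter only with ultrasound libraries counted. No marker of these lists was at 0 in all libraries.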

Additional observations from a re-analysis of the deposited data

How the results depend on the processing

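The count of 864 genes was 437 under median-of-ratios scaling and 150 where ultrasound 2 and 3 had their own term. It was 0 by limma with no filter on low values, with 4216 genes at an unadjusted p under 0.05, and 2179 by q in the authors' deposited table, and leaving out one library gave 0 to 5628. The count of 0 factors was 1 when scaled to the T cell list (Id3), 1 in a non-robust fit (Zeb2), 2 with voom on recovered reads (Bach2 and Zeb2), and 7 by q in the authors' deposited table, and leaving out one library gave 0 to 7. With the term for ultrasound 2 and 3 it was 1 (Id3), from a contrast with ultrasound 1 as the only library of its arm, assumed to vary like the others and singled out with its difference known, so it is no replicated call. For each of these, the cause was not tested. Without ultrasound 1, the library that gave 7, 53.6% of all tested genes passed.

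Libraries with 1 number did not deviate together (correlations of -0.04, 0.05 and 0.06), so the numbers were not taken as pairing. Under the replicate block limma called 0 genes and 0 factors, with 3249 genes at an unadjusted p under 0.05. The block left the 4 ratio differences at -0.52, -0.91, -0.77 and -1.22, with exact p of 0.50, 0.25, 0.25 and 0.25, where 0.25 is the smallest that 3 pairs can give.

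Of 160 results for the factors under alternatives, 132 kept their direction and side of the threshold, 20 came to pass it and 8 reversed. Over all named genes, of 701 such results 464 kept both, 194 kept the direction but no longer passed, 29 came to pass and 14 reversed. Lef1 reversed to -0.052 with median-of-ratios size factors, -0.041 with upper-quartile factors, -0.30 with a term for ultrasound 2 and 3 and -0.056 in the authors' deposited table, and ranged from -0.043 to 0.23 when one library was left out. With the term for ultrasound 2 and 3, Tbx21 (-0.50), the log2 change of Thy1 (-0.13), Cd79a (-0.50), Cd79b (-0.56), the log2 change of Wdfy4 (-0.097), Hbb-bs (0.13) and Hba-a1 (0.26) reversed. All 4 ratio differences kept their sign under each alternative run. Each factor had at least 751 reads in each library.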
